A study of Mus musculus with 2 samples.

Results

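The genes described here are 46 members of the interferon response and of antigen processing for major histocompatibility complex (MHC) class I, in a series whose arrays measured 18193 genes. They were chosen by name, and each gene was read by the probe set that carries exactly 1 gene symbol and has the highest mean of its 2 signals. Of the 46 members, 44 had such a probe set. Isg15 lay only on a probe set that carries 2 gene symbols, and neither Isg15 nor Ifi44 has a value here.

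RNA came from ATDC5, a mouse chondrogenic cell line. In both groups the cells were deprived of serum and exposed to cycloheximide (CHX, 10 µg/ml), which blocks protein synthesis, for 30 min. The CHX+PBS group then received PBS, and the CHX+Nell-1 group received recombinant human Nell-1, a secreted protein with bone-forming activity, at 100 ng/ml, each for another 30 min. The design asked which genes respond to Nell-1 when no new protein can be made. Each group is 1 array of 1 RNA sample, so every ratio compares 2 samples, no value has an error between cultures and no test was possible.

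Type I interferons bind a receptor made of IFNAR1 and IFNAR2, which carries the kinases TYK2 and JAK1. Their activity leads STAT2 and IRF9 to act in a complex called ISGF3, which binds interferon-stimulated response elements (ISREs) in promoters. The induced genes encode antiviral proteins, sensors of foreign nucleic acid, feedback inhibitors, and the proteasome subunits and peptide transporters that supply MHC class I. Many of them are also transcribed at a low level in cells that have met no virus.

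Values are MAS5 signals in arbitrary units, given for CHX+PBS first and CHX+Nell-1 second, and a ratio is the log2 of the CHX+Nell-1 signal over the CHX+PBS signal. A gene was called lower or higher with Nell-1 at 1.5-fold, the filter that the series' design states. Signals of different genes come from different probes and are not set against each other. In RNA from a culture, fewer expressing cells and less RNA per cell cannot be told apart. A gene was counted as above the median when its mean signal reached 64.3, the median over all non-control probe sets, and 35 of the 44 measured members did so. Among the 9 below it small signals gave widely scattered ratios. The robust SD of the log2 ratio over probe sets, which mixes noise with real differences, was 2.23 between signals of 13.2 and 23.8 and 0.21 in the brightest of 10 equal bins.

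Control probe sets differed between the arrays as well. All 24 probe sets for poly-A RNAs, which are added before labelling, had less signal after Nell-1 (median log2 ratio -0.49), and the 18 hybridisation spike-ins had a median of -0.18. Signal at the 3' over the 5' end was 1.32 and 1.28 for the beta-actin control, and 0.848 and 0.858 for the Gapdh control. Chondrocyte markers above the median included Sox9, the master factor of cartilage, at 3375 and 2577, and Col2a1, encoding the main cartilage collagen, at 909 and 1206. Acan, encoding aggrecan, at 176 and 293 and the cartilage factor Sox6 at 208 and 338 were called higher, none of the 5 chondrocyte markers above the median was lower, and their median ratio was 0.41. Comp at 28.5 and 6.35, Matn1 at 45.7 and 24.7 and Hapln1 at 43.8 and 13.9 were below the median signal and called lower. Over all 8 chondrocyte markers 3 were lower and 2 higher, with a median ratio of -0.13. Of all genes 19% were lower and 13.1% higher. Of 8 haematopoietic and macrophage markers 5 were above the median, and the signals of all 8 summed to 831 and 824. None of these 5 was called, while the 3 below the median, Ptprc, Itgam and Tyrobp, were called higher. All 4 endothelial markers were below the median, with 3 called lower and 1 higher, and their signals summed to 166 and 64.0. No marker was at 0. The part of the controls and the markers in the results was not tested.

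As deposited, most members had a somewhat lower signal with Nell-1, and 6 interferon-stimulated genes with signals above the median were 1.78-fold to 2.37-fold lower. Of the 44 measured members 37, or 84.1%, had a ratio below 0 and 7 above it, where 55.3% of all genes were below 0. The members' median log2 ratio was -0.28 beside -0.06 over all genes. Called lower were 10 members, or 22.7%, beside 19% of all genes, and called higher were 2 members, or 4.55%, beside 13.1% of all genes. Among members above the median signal 6 of 35 were lower and none was higher, where 7.53% of genes above the median were lower and 4.56% higher. The 6 were Usp18, Ifit1, Irf7, Irf9, Ifit3 and Rsad2. Irf7, at 91.3 and 41.7, passed the signal filter only through the CHX+PBS array. The other Rsad2 probe sets, below the median signal, had the opposite sign, with ratios of 0.93 and 3.69. The share called depended on signal. Between the median and the 75th percentile of signal 5 of 19 members were lower and none higher, beside 16.5% of genes lower and 8.48% higher. Above that percentile 1 of 16 members, Irf9, was lower and none higher, beside 1.96% of genes lower and 2.11% higher. The members were proposed with results of these arrays known, so these counts describe them and test nothing. With the poly-A spike-ins set to a ratio of 0, which moved the median of all genes from -0.06 to 0.44, the median ratio of the 35 was 0.23 instead of -0.26, and 9 of them were below 0. Usp18, Ifit1 and Irf7 were then still at least 1.5-fold lower, and Eif2ak2 and Igtp were higher, where 1.86% of genes above the median signal were lower and 34.9% higher. Such a shift leaves the distance to the other genes as it was, and 31 of the 35 lay below the median ratio of genes above the median signal.

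**Figure D1:**
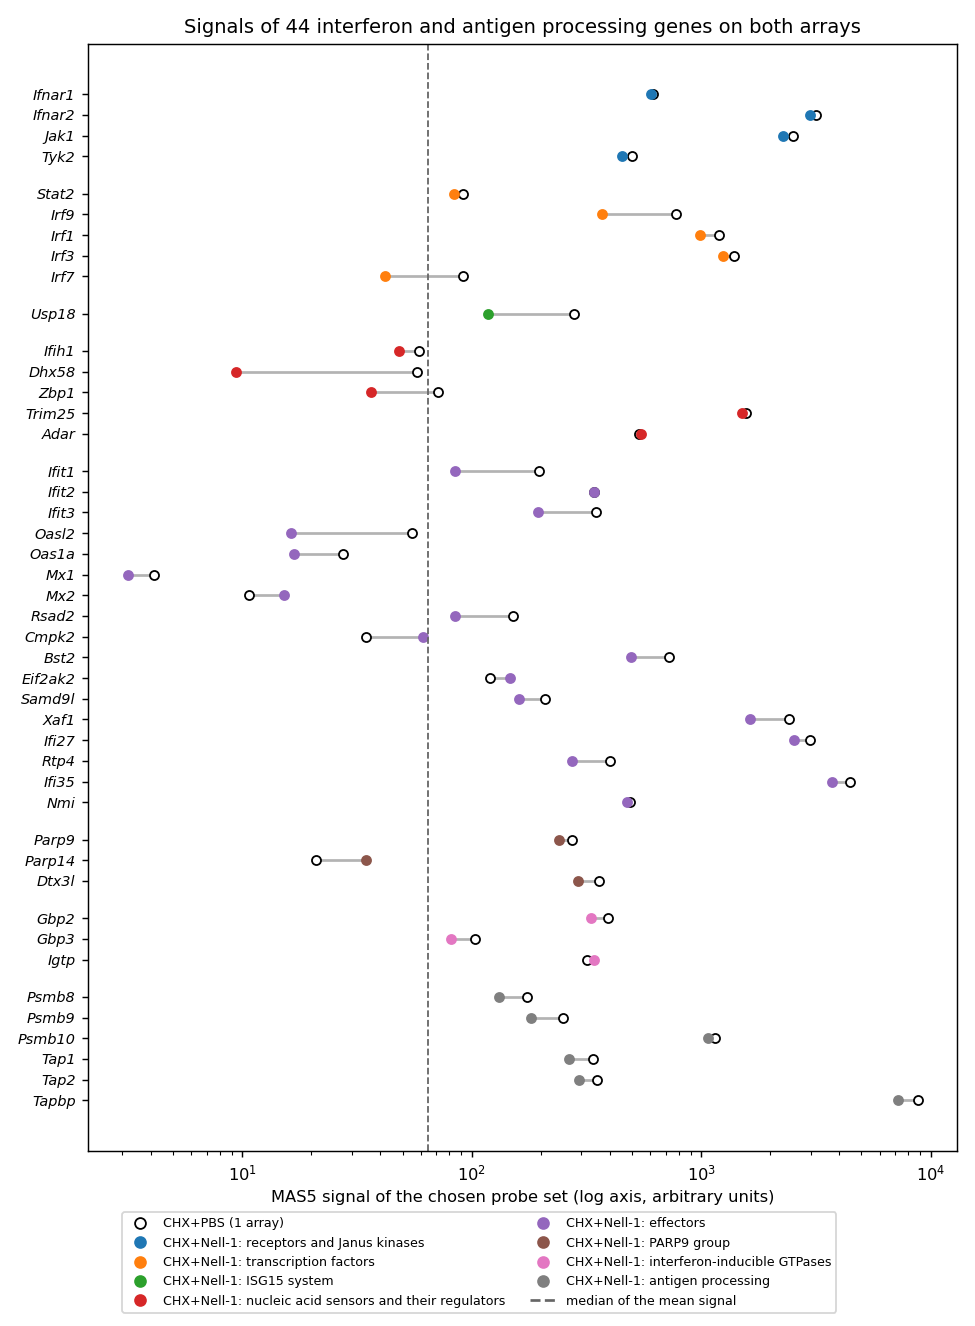
MAS5 signal (log axis, arbitrary units) of the chosen probe set of each of the 44 measured members on the CHX+PBS array (open circles) and the CHX+Nell-1 array (filled circles, coloured by role), 1 array each; the dashed line is the median of the mean signal, 64.3. Receptor and kinase genes have nearly superimposed circles, while Irf9, Irf7, Usp18, Ifit1, Ifit3 and Rsad2 have filled circles well to the left of the open ones.

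The receptor and its kinases differed little between the arrays. Ifnar1 and Ifnar2, the receptor chains, had signals of 619 and 604 and of 3166 and 2996, log2 ratios of -0.04 and -0.08. Jak1, the kinase bound to IFNAR2, measured 2516 and 2275, a ratio of -0.15, and its other 2 probe sets gave -0.11 and -0.07. Tyk2, the kinase bound to IFNAR1, measured 497 and 452, a ratio of -0.14. All 4 genes were below 0 as deposited and above it with either kind of spike-in set to 0, none reached 1.5-fold, and each ratio was smaller than the robust SD at its signal, which was 0.33 for Ifnar1 and Tyk2 and 0.21 for Ifnar2 and Jak1. The dimmer Ifnar2 probe set at 140 and 175 had a ratio of 0.32, opposite in sign to the other 2 Ifnar2 probe sets.

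The transcription factors were uneven. Irf9, the DNA-binding subunit of ISGF3, measured 775 and 369 on its only probe set, 1421322_a_at, a ratio of -1.07 or 2.10-fold lower. Its partner Stat2 measured 92.0 and 83.3, a ratio of -0.14, and its second probe set, at 11.5 and 18.5, lay below the median. Of Irf9 and Stat2, Irf9 alone was past 1.5-fold. Irf7, an interferon-induced factor that drives further interferon production, measured 91.3 and 41.7 on probe set 1417244_a_at, a ratio of -1.13. It was the only member above the median signal with 1 array below 64.3, and its mean of 66.5 passed the filter narrowly. Irf1, a factor induced by interferon gamma and other stimuli, measured 1194 and 987, a ratio of -0.28. Irf3, which is present before infection and is activated by phosphorylation, measured 1387 and 1247, a ratio of -0.15, with -0.34, 0.24 and 0.58 on its other 3 probe sets, the last of these being its only probe set not of a shared type. As deposited all 5 were below 0 on their brightest probe sets, and Irf9 and Irf7 alone were past 1.5-fold.

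Of the ISG15 system, in which a ubiquitin-like protein is joined to other proteins, only its protease was measured. Usp18, which removes ISG15 and also blocks signalling at IFNAR2, measured 279 and 118 on its only probe set, 1418191_at. The ratio of -1.25, or 2.37-fold lower, was the most negative among members above the median signal, where the robust SD at that signal was 0.43. From the wider list, Uba7, the enzyme that activates ISG15, measured 184 and 94.8, a ratio of -0.96, but its second probe set above the median, at 81.6 and 121, had 0.57. Ube2l6, the conjugating enzyme of the same pathway, measured 188 and 175, a ratio of -0.10.

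The IFIT family of antiviral RNA-binding proteins split by gene. Ifit1 measured 196 and 84.6 on probe set 1450783_at, a ratio of -1.21 or 2.32-fold lower. Ifit3 measured 349 and 195 on probe set 1449025_at, a ratio of -0.84 or 1.79-fold lower. Ifit2 measured 341 and 342 on probe set 1418293_at, a ratio of 0.01. Each of the 3 genes has a single probe set here, so none of these ratios has a second reading on the array. The 3 genes are neighbours on chromosome 19.

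Promoters of the IFIT genes are shown because these neighbours differed in ratio. Windows run from 250 bases before to 50 bases after the transcription start, come from RefSeq (build GRCm38.p6) and are written 5′ to 3′ on the gene's strand. Capitals mark each match to the ISRE core, GAAA followed by any 2 bases and a second GAAA, read on either strand, so that a match on the opposite strand appears as TTTC, any 2 bases and TTTC. Ifit2 has 2 annotated starts.
Ifit1, chr19:34640639-34640938, plus strand: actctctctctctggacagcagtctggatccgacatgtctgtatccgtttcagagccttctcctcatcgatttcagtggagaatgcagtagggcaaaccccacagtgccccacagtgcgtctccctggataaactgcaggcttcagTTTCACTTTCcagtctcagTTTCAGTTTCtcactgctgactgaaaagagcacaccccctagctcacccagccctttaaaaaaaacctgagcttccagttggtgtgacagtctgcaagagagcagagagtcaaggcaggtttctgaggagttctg
Ifit3, chr19:34583279-34583578, plus strand: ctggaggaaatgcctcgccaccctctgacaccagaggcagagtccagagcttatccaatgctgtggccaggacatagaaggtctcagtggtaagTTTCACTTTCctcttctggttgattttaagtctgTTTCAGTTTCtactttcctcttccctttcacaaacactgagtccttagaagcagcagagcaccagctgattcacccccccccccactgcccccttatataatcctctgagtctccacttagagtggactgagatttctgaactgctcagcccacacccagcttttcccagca
Ifit2 first start, chr19:34550444-34550743, plus strand: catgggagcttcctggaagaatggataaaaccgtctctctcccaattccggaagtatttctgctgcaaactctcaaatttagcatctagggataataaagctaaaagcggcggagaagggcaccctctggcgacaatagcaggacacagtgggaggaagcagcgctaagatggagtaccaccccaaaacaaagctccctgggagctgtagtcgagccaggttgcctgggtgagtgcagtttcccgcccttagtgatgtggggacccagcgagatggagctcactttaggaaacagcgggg
Ifit2 second start, chr19:34550838-34551137, plus strand: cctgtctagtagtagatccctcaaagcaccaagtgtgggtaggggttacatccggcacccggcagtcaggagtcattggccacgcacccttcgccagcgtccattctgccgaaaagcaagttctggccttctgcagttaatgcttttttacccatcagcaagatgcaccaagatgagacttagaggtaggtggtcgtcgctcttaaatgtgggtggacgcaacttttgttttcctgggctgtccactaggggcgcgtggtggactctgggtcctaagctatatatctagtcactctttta

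Ifit1 and Ifit3 each held 2 matches with the same letters, TTTCACTTTC and TTTCAGTTTC, which begin 104 and 85 bases upstream of the Ifit1 start and 156 and 122 bases upstream of the Ifit3 start. Neither Ifit2 window held a match, which says only that these letters are not in these windows. A match is a description of letters and not of a bound site.

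The remaining effectors, proteins that act directly against infection, ranged from lower to slightly higher. Rsad2, encoding the antiviral radical enzyme viperin, measured 151 and 84.8 on its brightest probe set, 1436058_at, a ratio of -0.83. Its other 2 probe sets lay below the median and had the opposite sign, at 39.0 and 74.3 and at 2.06 and 26.5, so the direction of Rsad2 depends on the probe set. Bst2, the membrane protein tetherin that holds budding virus, measured 724 and 494, a ratio of -0.55. Xaf1, a pro-apoptotic interferon target, measured 2409 and 1634, a ratio of -0.56, and its second probe set, at 253 and 190, had -0.42. Rtp4 measured 399 and 275, a ratio of -0.54. These 3 genes lay just short of 1.5-fold, with Xaf1 the nearest at 1.47-fold lower, while the nearest called lower among members above the median signal was Rsad2 at 1.78-fold.

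Other effectors above the median were closer to 0. Samd9l, a growth-restraining antiviral protein, measured 209 and 160, a ratio of -0.39. Ifi35 measured 4472 and 3730, a ratio of -0.26, and its other 2 probe sets disagreed at -0.51 and 0.12. Nmi, the protein that pairs with IFI35, measured 488 and 474, a ratio of -0.04. Ifi27, a mitochondrial interferon-induced protein, had ratios of -0.22 and -0.20 on its 2 probe sets, with signals of 2969 and 2551 on the brighter. Eif2ak2, encoding the RNA-activated kinase PKR that halts translation, was the only effector above the median with a ratio over 0.1. Its signals were 120 and 147, 89.5 and 146, and 97.6 and 99.6 on 3 probe sets, ratios of 0.30, 0.71 and 0.03. Of the 12 effectors above the median 3 were lower, 9 were within 1.5-fold and none was higher, and their median was -0.46. Of all genes above the median 7.53% were lower and 4.56% higher. The 3 lower effectors lay between the median and the 75th percentile of signal, where 16.5% of genes were lower and 8.48% higher.

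The members from the classical antiviral Mx and OAS families were below the median signal, unlike Oasl1 of the wider list, which is given further on. Mx1, a GTPase against influenza virus, measured 4.11 and 3.17, and Mx2 measured 10.7 and 15.2. Oas1a, which makes the second messenger that activates RNase L, measured 27.4 and 16.8, and Oasl2 measured 54.9 and 16.3. Cmpk2, a nucleotide kinase, measured 34.5 and 61.4 on its brightest probe set and 66.5 and 14.9 on the other, in opposite directions. Of these 5 below the median, Oas1a and Oasl2 were called lower and Cmpk2 higher, at signals where the robust SD of the ratio was between 0.93 and 2.23. Calls were common at such signals: 19% of all genes were lower and 13.1% higher, beside 7.53% and 4.56% of genes above the median.

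**Figure D2:**
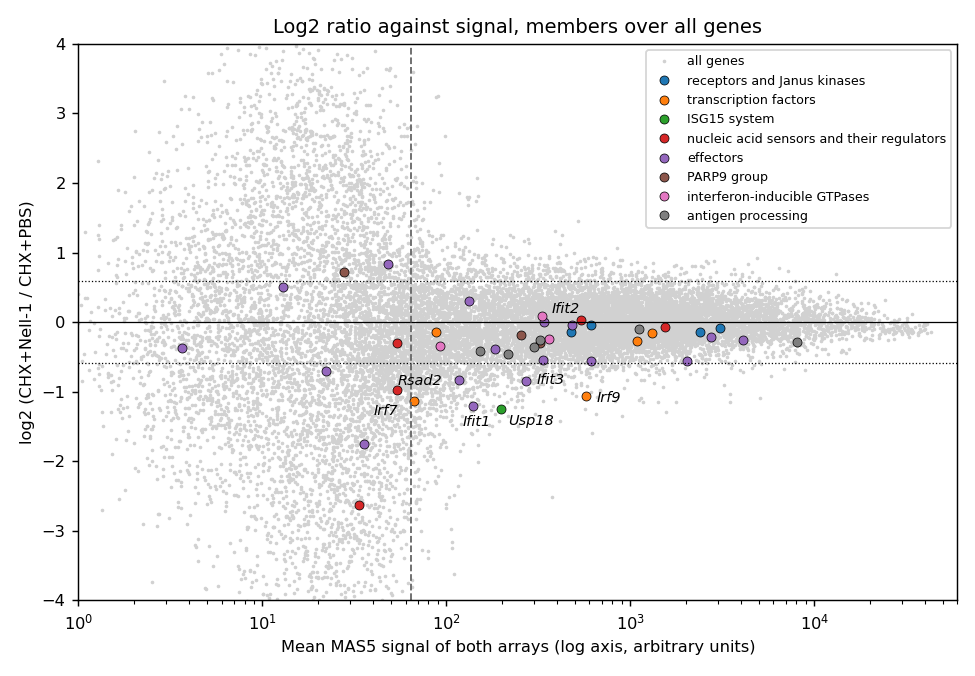
Log2 ratio of CHX+Nell-1 over CHX+PBS against the mean MAS5 signal of both arrays (log axis) for all genes (grey) and the 44 members (coloured by role); dotted lines mark 1.5-fold, the dashed line the median signal of 64.3, and 163 genes beyond a ratio of 4 in either direction or below a signal of 1 are not drawn. The spread of all genes narrows as signal grows, the 6 named lower members lie under the lower dotted line to the right of the dashed line, and Ifit2 lies at 0.01.

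Sensors of nucleic acid and their regulators showed no member past 1.5-fold above the median signal. Trim25, a ubiquitin ligase that activates the RNA sensor RIG-I, measured 1575 and 1500 on its brightest probe set, a ratio of -0.07, with 0.04 and -0.07 on the others. Adar, which edits adenosines in double-stranded RNA, measured 538 and 547, a ratio of 0.02. A second Adar probe set above the median measured 259 and 149, a ratio of -0.80, so the Adar readings differ by probe set. Ifih1, the RNA sensor MDA5, measured 59.1 and 48.2, just below the median. Dhx58, a regulator of the RIG-I family, measured 57.9 and 9.34, and all 3 of its probe sets were lower, with ratios from -3.01 to -1.63, all below the median signal. Zbp1, a sensor of left-handed nucleic acid, measured 71.4 and 36.4 on 1 probe set and 4.87 and 18.4 on the other, in opposite directions.

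The ADP-ribosylation genes and the interferon-inducible GTPases above the median signal stayed within 1.5-fold on their brightest probe sets. Parp9 and Dtx3l, which encode partners in 1 complex, measured 273 and 240 and 358 and 290, ratios of -0.18 and -0.30. Parp14, a related enzyme, was below the median at 20.9 and 34.7 and was called higher there, while its other probe set had a ratio of -1.11. Gbp2, a guanylate-binding protein that attacks pathogen vacuoles, measured 393 and 333, a ratio of -0.24, and 382 and 213 on its second probe set, a ratio of -0.84. Gbp3 measured 104 and 81.6, a ratio of -0.34. Igtp, an immunity-related GTPase, measured 319 and 340, a ratio of 0.09. The Gbp2 probe sets were thus on different sides of 1.5-fold.

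As deposited, genes of antigen processing were all slightly lower on their brightest probe sets and none reached 1.5-fold there, and their median turned positive with the poly-A spike-ins set to 0. The immunoproteasome subunits, which interferon gamma induces and which replace constitutive subunits, were Psmb8 at 175 and 131, Psmb9 at 250 and 182, and Psmb10 at 1148 and 1070. Their ratios were -0.41, -0.46 and -0.10. The constitutive counterparts Psmb5, Psmb6 and Psmb7 had ratios of -0.09, -0.07 and -0.17. Psmb8 and Psmb9 were further below 0 than each of the 3 counterparts, and Psmb10 lay between Psmb5 and Psmb7. The robust SD of the ratio was 0.43 at the signals of Psmb8 and Psmb9 and 0.21 at those of the counterparts. Whether the ratios differ beyond this spread was not tested. Tap1 and Tap2, the subunits of the peptide transporter of the endoplasmic reticulum, measured 338 and 264 and 350 and 293, ratios of -0.35 and -0.26. Tapbp, or tapasin, which bridges the transporter to MHC class I, measured 8812 and 7222, a ratio of -0.29, with -0.30 on its second probe set. The median of the 6 genes was -0.32. Dimmer probe sets, all below the median signal, gave -2.35 for Psmb8 and -1.37, -1.76 and -0.33 for Tap1, and as a mean over probe sets Psmb8 at -1.38 and Tap1 at -0.95 passed 1.5-fold. The RefSeq promoter windows of Psmb9 and Tap1, which are transcribed away from each other, overlap by 275 bases, and neither holds an ISRE core.

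Group medians above the median signal moved with the scaling. With the poly-A spike-ins set to 0 they were 0.17 for antigen processing, 0.22 for the transcription factors and 0.03 for the effectors, beside 0.46 for genes above the median. Setting the hybridisation spike-ins to 0 left these medians at -0.14, -0.10 and -0.29, turned that of the receptors and kinases to 0.07, and put genes above the median at 0.14.

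**Figure D3:**
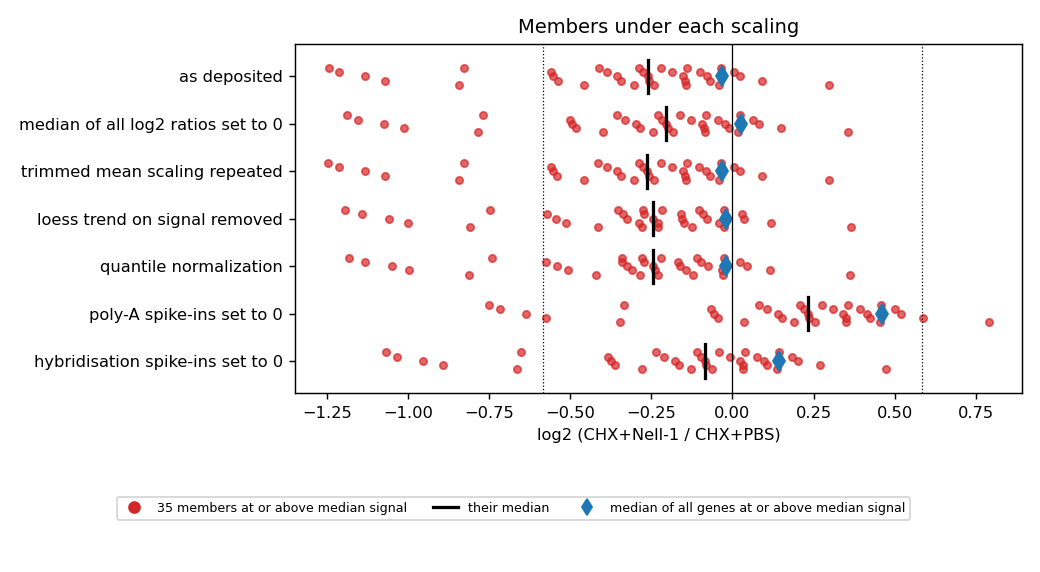
Log2 ratios of the 35 members above the median signal (points) under 7 scalings of the 2 arrays, with their median (bar) and the median of all genes above the median signal (diamond); dotted lines mark 1.5-fold. The bar lies left of the diamond in each scaling, at -0.26 and -0.03 as deposited and at 0.23 and 0.46 with the poly-A spike-ins set to 0.

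Several members have further probe sets, which read the same 2 RNA samples and are no replicates. Of 17 such probe sets above the median signal, from 12 genes, 13 had the sign of the brightest probe set, with 2 lower and 1 higher by 1.5-fold and a median ratio of -0.07. The 2 lower were those of Adar and Gbp2, and the higher was that of Eif2ak2. Among genes above the median signal 7.53% were lower and 4.56% higher. Of 18 below the median signal 9 had the sign of the brightest, 8 were lower and 5 higher. Calls were common there in general. Of all 18193 genes 3460 were lower and 2383 higher, of which only 874 and 529 were among the 11600 above the median. Among the 6 lower members only Rsad2 has a further probe set, and both of its others had the opposite sign.

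**Figure D4:**
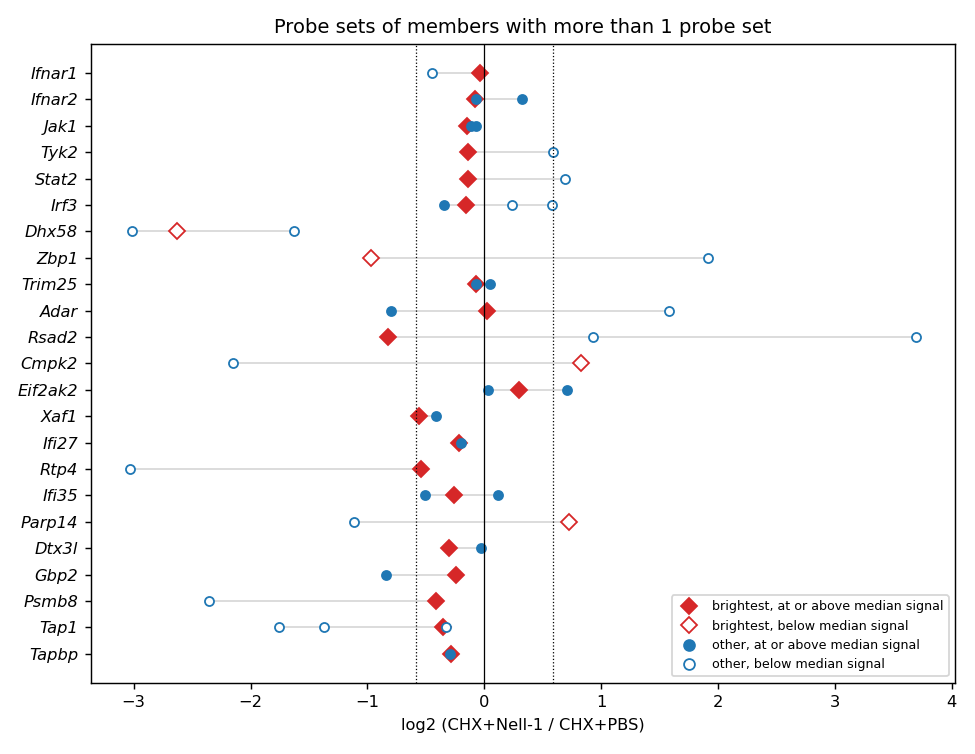
Log2 ratio of CHX+Nell-1 over CHX+PBS for each probe set of the 23 members that have more than 1; diamonds are the brightest probe set, circles the others, filled symbols lie at or above the median signal and open symbols below it, and dotted lines mark 1.5-fold. Filled symbols of a gene lie close together for some genes, as for Jak1, Ifi27 and Tapbp. For others they lie apart, as for Adar (0.02 and -0.80), Gbp2 (-0.24 and -0.84) and Eif2ak2 (from 0.03 to 0.71). Open symbols spread from -3.03 for Rtp4 to 3.69 for Rsad2.

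Across the promoters of members, ISRE cores were more common than among all genes. RefSeq windows were found for 36 of the 46 members; Usp18, Dhx58, Zbp1, Mx1, Mx2, Ifi27, Rtp4, Parp9, Parp14 and Tap2 were not found there by symbol or gene ID. The ISRE core occurred on either strand in 12 of the 36 members, or 33.3%, beside 3.99% of 27025 genes in the table, counting a gene once over all its starts. A match to TTCNNNGAA, the core of the gamma-activated site (GAS) and a palindrome, occurred in 11 members, or 30.6%, beside 9.55% of genes. In 1 gene, Bst2, the 2 motifs overlapped. These members were named as interferon genes to begin with, so the share is a description of the list.

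Lower members occurred with and without the ISRE core. Among members above the median signal with a window, 9 held the core, of which Ifit1, Ifit3 and Rsad2 were lower, with ratios from -1.21 to 0.30 and a median of -0.34. The other 21 included 2 lower genes, Irf9 and Irf7, with ratios from -1.13 to 0.02 and a median of -0.26. Of all genes above the median signal 7.53% were lower and 4.56% higher. Igtp and Gbp2 are shown beside Rsad2 and Bst2. Each carries the core, with ratios of 0.09, -0.24, -0.83 and -0.55 on their brightest probe sets. The second Gbp2 probe set had -0.84 and the other Rsad2 probe sets 0.93 and 3.69. The ratios of Gbp2 and Rsad2 thus depend on the probe set. Capitals again mark the core, with 25 bases on each side.
Rsad2, chr12:26456538-26456597, minus strand: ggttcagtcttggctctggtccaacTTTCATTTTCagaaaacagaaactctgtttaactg
Bst2, chr8:71537562-71537627, minus strand: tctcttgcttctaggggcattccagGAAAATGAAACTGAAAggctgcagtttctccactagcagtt
Igtp, chr11:58199497-58199556, plus strand: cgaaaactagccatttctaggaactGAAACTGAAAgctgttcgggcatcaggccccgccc
Gbp2, chr3:142620579-142620638, plus strand: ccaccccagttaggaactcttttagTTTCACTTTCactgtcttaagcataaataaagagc

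In Bst2 the 2 matches share 4 bases and form the run GAAAATGAAACTGAAA. The Igtp match begins 34 bases and the Gbp2 match 59 bases upstream of the start, closer than the 120 bases of Rsad2 and the 130 bases of the first Bst2 match. Isg15, which has no value here, held 3 overlapping matches in its window.

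Other genes of the pathway, from lists that do not include the members, gave a mixed picture. Of 71 measured genes 55 were above the median signal, of which 6 were lower, 3 higher and 46 neither, with a median of -0.08 beside -0.03 for genes above the median. Over all genes above the median 7.53% were lower and 4.56% higher. Among 26 other interferon-stimulated genes above the median 5 were lower and 2 higher. Oasl1, which restrains Irf7 translation, measured 208 and 68.1, a ratio of -1.61. Ifi203, a nuclear DNA-binding family member, measured 263 and 105, a ratio of -1.32. Epsti1 measured 99.4 and 41.3, and its other 3 probe sets were below the median and disagreed in sign. The secreted glycoprotein gene Lgals3bp measured 537 and 336, a ratio of -0.68, and Uba7 is the fifth. Higher were the GTPase Iigp1 at 52.1 and 104 and the ubiquitin ligase Trim21 at 116 and 194. The second Trim21 probe set, at 92.9 and 56.9, had the opposite sign, and the second Iigp1 probe set, at 33.9 and 31.0, had a ratio of -0.13. Iigp1 and Epsti1 each passed the median signal with 1 array below 64.3. Ifitm3, which blocks virus entry, was within 1.5-fold at 12898 and 9873, a ratio of -0.39.

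In the smaller lists that follow, calls stand beside 7.53% lower and 4.56% higher of all genes above the median. Among other ligands, receptors and regulators 1 of 12 genes above the median was lower and none higher. That gene was Socs1, a feedback inhibitor of Janus kinases, at 132 and 72.1, a ratio of -0.87. Socs3, a related inhibitor, measured 1926 and 1829, a ratio of -0.08. The interferon gamma receptor genes Ifngr1 and Ifngr2 had ratios of -0.03 and -0.25. Ifnb1, encoding interferon beta, was below the median at 94.9 and 31.3. In nucleic acid sensing Tank, an adaptor of the kinase TBK1, was the 1 gene of 5 above the median that was higher, at 575 and 868. Its second probe set, below the median at 60.4 and 37.5, had a ratio of -0.69. Tbk1 itself measured 1589 and 2092, a ratio of 0.40. None of 9 MHC class I presentation genes above the median reached 1.5-fold. B2m, the light chain of class I, measured 24230 and 20668, a ratio of -0.23, and the heavy chain gene H2-K1 had 0.05 on its brightest probe set, which belongs to a family of near-identical genes. Psme1, a proteasome activator subunit, measured 3100 and 2398, a ratio of -0.37.

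**Figure D5:**
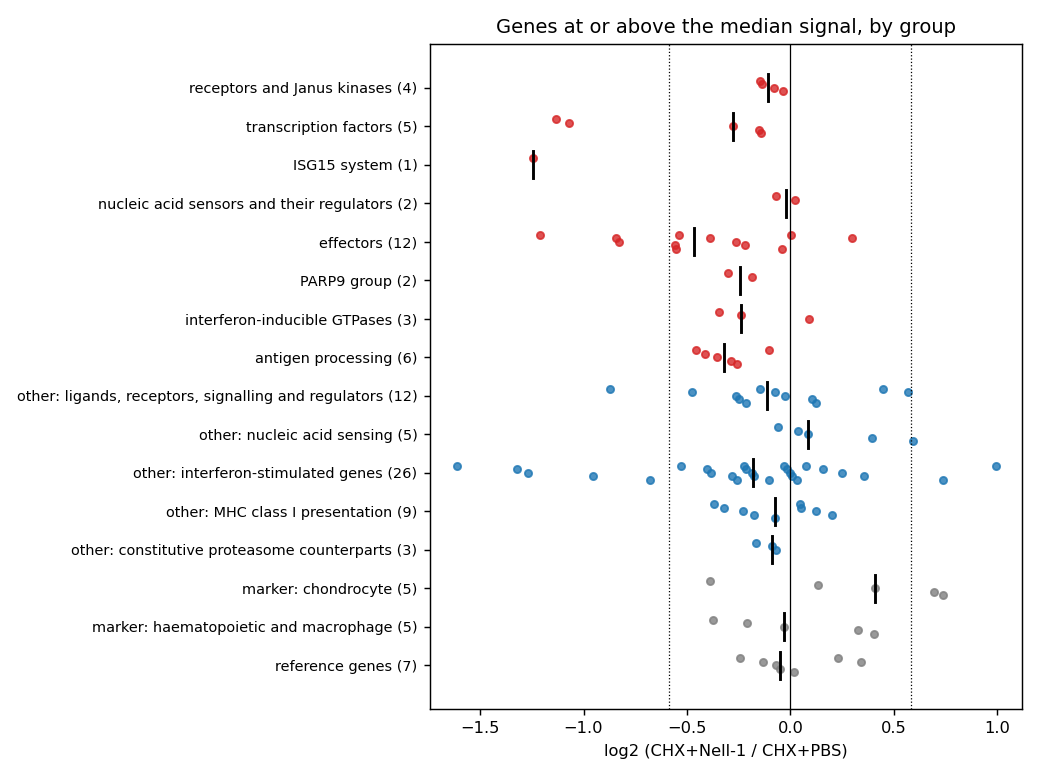
Log2 ratios of genes at or above the median signal by group, with the number of genes in brackets; red points are member groups by role, blue points other pathway genes, grey points markers and reference genes, bars the group medians, and dotted lines 1.5-fold. As deposited all 6 antigen processing genes lie below 0 and within 1.5-fold, while the effectors and the other interferon-stimulated genes spread from -1.21 to 0.30 and from -1.61 to 0.99.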

How the data were processed

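Total RNA of 2 samples was hybridised to 1-colour Affymetrix mouse arrays, 1 per group. The deposited values are intensities, linear MAS5 signals made with Affymetrix Expression Console per the submitters' processing notes, which give no versions. Each array's 2% trimmed mean was 500.0, tested on the table. Detection calls and depth measures were not used, and the number of arrays limits the precision.

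Of 45037 non-control probe sets 34945 carry 1 gene symbol in the platform annotation, 932 several and 9160 none, and gene IDs of 34741 were found in RefSeq (GRCm38.p6). The symbols of all 44 measured members were the same there. Log2 ratios, counts and medians were computed with Python 3.11.15 and pandas 2.3.3, and checked on simulated data. The simulated noise was the same at every signal, so the check does not show how often calls arise at low signals. With 1 array per group no test, SE or p-value is given. The members and gene lists were chosen with earlier results of these arrays known. Named genes are all members, and of the other lists those above the median signal and past 1.5-fold, plus Ube2l6, Socs3, Ifngr1, Ifngr2, Ifnb1, Tbk1, B2m, H2-K1, Psme1, Ifitm3 and the constitutive proteasome genes, named after their values were seen. Alternatives were 6 rescalings, a value of 17.9 added or used as floor, other filters, probe set choices and a 2-fold threshold.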

Additional observations from a re-analysis of the deposited data

How the results depend on the processing

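No paired analysis was possible because the groups share no second pair of samples, and with 1 array per group no replicate could be left out. As deposited, 10 members were lower and 2 higher (6 and none above the median signal), with median log2 ratios of -0.28 and, above the median, -0.26. With the poly-A spike-ins set to 0 there were 5 lower and 5 higher (3 and 2 of 35 above the median, where 1.86% of genes were lower and 34.9% higher), with medians of 0.21 and 0.23; with the hybridisation spike-ins set to 0 the medians were -0.10 and -0.084. Without shared probe set types, which leaves 31 members, 6 were lower. Irf9, Irf7 and Oasl2 dropped out, as their only probe sets are of a shared type. Of the 6 lower members above the median signal, the 4 that remained stayed lower. At 2-fold 6 were lower and 0 higher. With 17.9 added to both signals 1 was higher. As a mean over probe sets 12 were lower and 1 higher (8 and 1 above the median), with Psmb8 at -1.38, Tap1 at -0.95 and Rtp4 at -1.79 newly past 1.5-fold, and Rsad2 turned to 1.26, Zbp1 to 0.47, Cmpk2 to -0.66 and Parp14 to -0.19; without shared types Zbp1 was at 1.92 and Irf3 at 0.58. Among the alternatives run, the 6 lower members all stayed past 1.5-fold in the median, trimmed mean, loess, quantile and hybridisation rescalings, and 3 of 6 did so with the poly-A spike-ins. Centring on spike-ins adds the same constant to each ratio, and the cause of the other shifts was not tested.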
